A study of Mus musculus with 2 samples.

Results

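The regions described here are the 184 of 14973 listed regions whose nearest protein-coding transcription start, within 100 kb, belonged to a Rab, Tbc1d, Vps, Snx, Stx or Vamp gene. Members were found by gene symbol: a start of Tbc1d or Vps, or Rab, Snx, Stx or Vamp followed by a digit, with starts taken from the basic set of GENCODE M21. The regions were active or repressed fragments in a STARR-seq experiment, in which genomic fragments sit in a reporter on an episome and are transcribed in proportion to their own regulatory activity, so that their share in the RNA output can be set against that in the input DNA. The labels give a fragment size of 200 to 400 bp, so listed regions under 200 bp are narrower than any assayed fragment. The reporter was introduced by transient transfection into primary, activated Th1 cells, interferon gamma-secreting CD4 T cells, from C57BL/6NJ mice of unknown age. Per the labels, treatment with anti-CD3e at 0.25 ug/mL and anti-CD28 at 1 ug/mL lasted 3 days, and treatment with Interleukin-12 p70 at 10 ng/mL, Interleukin-2 at 10 ng/mL and anti-Interleukin-4 at 2 ug/mL lasted 4 days, with the doses of anti-CD28 and anti-Interleukin-4 legible for replicate 2 only and those of the interleukins for replicate 1 only. There was 1 group of 2 output libraries, with 1 donor identifier for both, and no untreated or other cell type to compare. The assay gives no level of any endogenous gene, so the cell type could not be checked against its markers.

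All effects, p-values and adjusted p-values below are those of the authors' deposited table, which combines the pair of libraries. Replicate spread therefore cannot be given for any of them, and read depth is unknown. For the signed effect, with scale and direction not given in the sources used here, a positive value was taken to mean more output than input. Every listed region had an adjusted p below 0.01. Coordinates are mm10.

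Membrane traffic moves proteins between the endoplasmic reticulum, the Golgi, endosomes, lysosomes and the cell surface. Rab GTPases mark each compartment when bound to GTP, Tbc1d proteins switch them off by speeding GTP hydrolysis, Vps complexes tether and sort vesicles, sorting nexins (Snx) shape endosomal tubules and bind phosphoinositides, and syntaxins (Stx) and Vamp proteins are the SNAREs that fuse a vesicle with its target. T cells use this machinery to recycle the T cell receptor and to release cytokines and lytic granules, for which Rab27a, Stx11 and Vamp8 are known in lymphocytes.

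Sequences at the extremes of the member list are given first, on the + strand of mm10, because high and low members differed in kind. The members with the highest effects, near Rab3gap2 (chr1:185172251-185172500, intergenic) and Tbc1d22a (chr15:86222101-86222250, intronic), are printed whole, and capitals mark the longest run of bases that they share.

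Rab3gap2: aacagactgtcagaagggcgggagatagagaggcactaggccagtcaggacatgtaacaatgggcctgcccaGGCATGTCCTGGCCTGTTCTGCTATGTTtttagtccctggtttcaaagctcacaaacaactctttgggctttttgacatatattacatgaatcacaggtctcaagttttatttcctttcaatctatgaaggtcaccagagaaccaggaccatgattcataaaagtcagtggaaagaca

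Tbc1d22a: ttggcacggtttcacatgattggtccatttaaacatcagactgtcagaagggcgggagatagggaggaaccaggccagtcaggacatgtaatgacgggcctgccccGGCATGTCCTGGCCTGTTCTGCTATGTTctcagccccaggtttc

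The highest syntaxin region, in an intron near Stx6 (300 bp, chr1:155173751-155174050), and the highest Rab GTPase region, in an intron near Rab8b (whole, chr9:66892776-66892825), follow. The capitals mark the AP-1 consensus TGANTCA, which neither the Rab8b region nor the 300 bp around its centre holds.

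Stx6: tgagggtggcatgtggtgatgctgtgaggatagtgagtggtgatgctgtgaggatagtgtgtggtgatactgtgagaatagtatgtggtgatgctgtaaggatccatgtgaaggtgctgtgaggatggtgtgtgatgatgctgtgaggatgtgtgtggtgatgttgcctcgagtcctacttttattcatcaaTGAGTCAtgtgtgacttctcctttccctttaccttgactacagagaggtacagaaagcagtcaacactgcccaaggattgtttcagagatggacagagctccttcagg

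Rab8b: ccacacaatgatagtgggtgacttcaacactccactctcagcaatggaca

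The lowest members lay at GC-rich starts. Stretches of 300 bp without annotated UTR are shown from the regions of Snx25 (chr8:46152414-46152713), where capitals mark SP (CCCCGCCCC), NFY (CCAAT) and STAT (TTCNNNGAA) consensus matches on either strand, and Rab3ip (chr10:116949960-116950259), in which no searched consensus was found.

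Snx25: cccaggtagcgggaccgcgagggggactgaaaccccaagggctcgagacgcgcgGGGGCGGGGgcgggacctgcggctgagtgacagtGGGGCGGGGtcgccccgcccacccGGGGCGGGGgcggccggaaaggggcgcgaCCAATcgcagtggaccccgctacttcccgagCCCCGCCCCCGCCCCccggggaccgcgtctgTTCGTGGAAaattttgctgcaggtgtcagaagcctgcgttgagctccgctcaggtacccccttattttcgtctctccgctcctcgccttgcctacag

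Rab3ip: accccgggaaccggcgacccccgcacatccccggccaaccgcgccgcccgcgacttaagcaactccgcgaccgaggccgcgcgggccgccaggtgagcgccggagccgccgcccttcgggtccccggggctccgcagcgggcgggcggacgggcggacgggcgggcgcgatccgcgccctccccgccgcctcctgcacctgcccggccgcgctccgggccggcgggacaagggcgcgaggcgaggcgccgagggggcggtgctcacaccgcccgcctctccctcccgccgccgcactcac

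The printed stretches had GC contents of 44.4% near Rab3gap2, 54.7% near Tbc1d22a, 47.3% near Stx6 and 48% near Rab8b, against 71% at Snx25 and 82% at Rab3ip. They held 1, 4, 1 and 0 CpG dinucleotides in the high group and 33 and 54 in the low group.

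Most genes of the traffic machinery had a listed region. Of 186 annotated protein-coding member genes, 128 were the nearest start of at least 1 region (68.8%, 95% Wilson interval 61.8 to 75.04%), whereas 42.8% of all 21938 protein-coding genes were. The share ran from 4 of 7 Vamp genes and 18 of 30 Tbc1d genes to 27 of 35 Vps genes (77.1%, 61.0 to 87.9%), with 42 of 59 Rab GTPases (71.2%), 6 of 10 other Rab-named genes, 21 of 30 Snx genes and 10 of 15 Stx genes. At the start itself, within 1000 bp, 99 member genes (53.2%) and 30.0% of all protein-coding genes had a listed region. The table does not list regions that missed its threshold, and all protein-coding genes include those of families such as olfactory receptors, so the shares are given as a description, without a test. Genes without a region included Rab4a and Rab14 of the recycling endosome, Rab27b, Stx3, Vamp2 and the retromer subunits Vps29 and Vps35, the complex that returns cargo from endosomes.

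**Figure D1:**
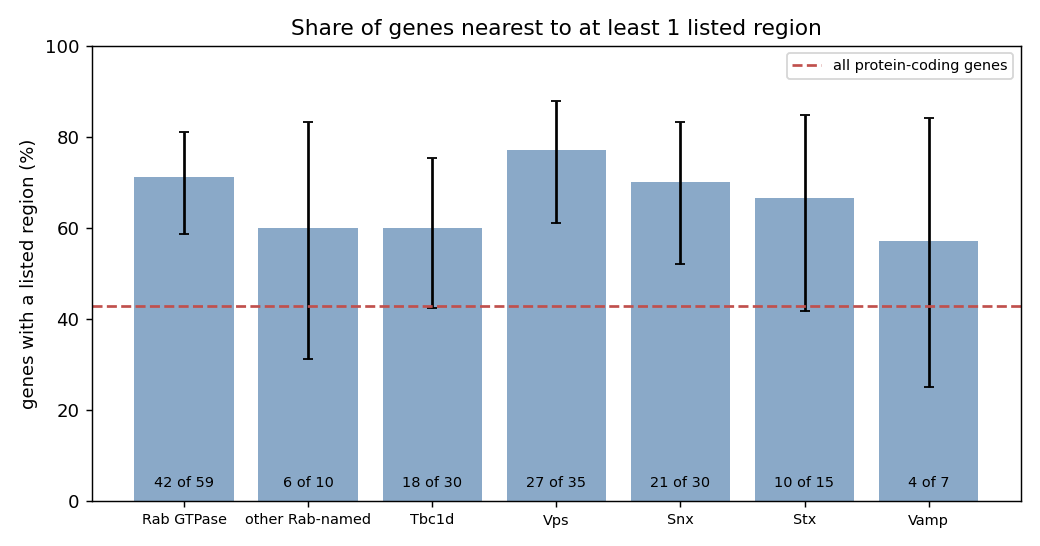
Percent of annotated protein-coding genes (vertical axis) in each of 7 families that were the nearest start, within 100 kb, of at least 1 listed region, with 95% Wilson intervals and the counts in the bars. The dashed line is the share among all protein-coding genes (42.8%), and the bars run from 57.1% for Vamp to 77.1% for Vps.

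The direction of effect among member regions was close to that of the table as a whole. Of the 184, 155 had a positive effect (84.2%, 78.3 to 88.8%) and 29 a negative one, beside 80.7% positive among all listed regions. The median effect was 0.74 (distribution-free 95% interval 0.69 to 0.78) and that of all listed regions was 0.73. An effect of 1 or more was found in 33 member regions (17.9%), beside 22.8% of all listed regions, and one of -1 or less in 15 (8.15%), beside 11.2%. In the authors' deposited table the members spanned -2.69 to 2.84, and all regions -5.93 to 7.92. Intervals on shares cover counting error over regions only, and regions near 1 gene share their source.

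The 100 kb limit touched few of the values. Just inside it, the authors' deposited table gave 1.13 for a region 95994 bp from the start of Rab39b, 1.498 at 92476 bp from that of Snx10 and -0.91 at 85760 bp from that of Tbc1d7. Just outside it were regions nearest to Snx9 (107791 bp, effect 0.76), Rab11fip4 (113026 bp, 0.92) and Vps50 (122228 bp, 2.28), among 10 such regions that were left out.

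Of the 59 Rab GTPase genes, 42 had 55 regions, 50 of them positive (90.9%, 80.4 to 96.1%), with a median effect of 0.80. The interval includes the 80.7% positive among all listed regions, and differences between groups of Rabs were not tested. Regions of the endocytic and recycling Rabs, which act from the cell surface to late endosomes, were positive in 17 of 18 cases over 15 of 20 genes. Promoters of the early endosome Rabs had effects of 0.60 at Rab5a, 0.89 at Rab5b and 0.56 at Rab5c in the authors' deposited table. The recycling Rabs gave 0.73 at Rab11a, 0.89 at Rab11b and 1.01 at Rab4b there. For the late endosome the authors' deposited table gave 0.77 at Rab7 and 1.27 at Rab9 (adjusted p = 1.56e-07). These promoter regions were centred 6 to 242 bp from the starts. The exception was Rab15, whose start had an effect of -1.86 (adjusted p = 8.97e-06) in the authors' deposited table, at 69.3% GC.

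Rabs of the secretory pathway and the Golgi had 31 regions over 21 of 29 genes, and 28 were positive (90.3%, beside 80.7% of all listed regions). Rab1a and Rab1b, which act between the endoplasmic reticulum and the Golgi, had promoter effects of 1.40 (adjusted p = 2.18e-08) and 1.13 in the authors' deposited table. Rab10 and Rab8b, which act in exocytosis, were led by regions far from their starts in that same source, the authors' deposited table. The Rab10 region with an effect of 1.62 there lay 74331 bp from its start but 112 bp from that of the non-coding gene Rab10os (chr12:3235201-3236075). Rab8b had no region at its start and 3 in its introns, at 1.83, 0.63 and 0.55 in the authors' deposited table, and the first of these was only 50 bp wide and wholly soft-masked as repeat. Rab20, a Rab of phagosomes, had 4 regions, at its start and up to 14435 bp into its intron, all positive, from 0.63 to 0.83 in the authors' deposited table. Rab37, linked to regulated secretion, had 3 with effects of 0.72, 0.91 and 0.97 there. Rab27a, which docks lytic granules, had an effect of 0.77 in a region centred 229 bp upstream of its start, from the authors' deposited table. Negative effects were found at the starts of Rab2a (-1.39), Rab6b (-0.97) and Rab12 (-0.84) in the authors' deposited table. The remaining negative Rab GTPase region was intronic, near Rab28 (-0.80), with 35.6% GC, the lowest among members.

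The 10 other Rab-named genes, which bind or regulate Rabs, had 10 regions over 6 genes, 8 of them positive (80%, beside 80.7% of all listed regions). The highest was the intergenic Rab3gap2 region, for which the authors' deposited table gave 2.84 (adjusted p = 0.0057). Rab11fip3, an effector that ties Rab11 to recycling endosomes, had 0.55, 0.84 and 0.72 in the authors' deposited table, the last at its start. The start of Rab11fip5, of the same effector family, had 0.83 there. The lowest, -2.12 (adjusted p = 3.07e-08), was at the start of Rab3ip, which encodes a Rab8 exchange factor, in the authors' deposited table.

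Among the 30 Tbc1d genes, 18 had 32 regions and 27 were positive (84.4%, 68.3 to 93.1%), with a median of 0.68. The 80.7% of all listed regions lies within that interval. The highest effects in the authors' deposited table lay in introns near Tbc1d22a (2.53), Tbc1d2 (1.32), Tbc1d25 (1.30) and Tbc1d20 (1.10). Tbc1d1, which acts on Rabs of glucose transporter vesicles, had 3 positive regions from 0.58 to 0.94 in that source. Tbc1d10c, known in lymphocytes as an inhibitor of calcineurin and Ras signalling, had 2 of 0.63 and 0.59 in the authors' deposited table, and the one at its start lay in CpG-poor sequence (CpG observed over expected 0.10). The starts with the lowest values in the authors' deposited table were those of Tbc1d12 (-1.56), of Tbc1d5 (-1.32), which acts with the retromer on Rab7, and of Tbc1d20 (-0.95), a regulator of Rab1.

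Vps genes had 33 regions over 27 of 35 genes, of which 26 were positive (78.8%, 62.3 to 89.3%), with a median of 0.67. The 80.7% of all listed regions lies within that interval. Genes of HOPS and CORVET, which tether late and early endosomes, counted together with Vps33b, had 6 regions over 6 of 8 genes. At their starts the authors' deposited table gave 0.59 at Vps11, 0.67 at Vps18, 0.78 at Vps33a, 0.80 at Vps33b and 0.77 at Vps39, while the region given to Vps41 was intronic, 55310 bp from its start, and negative (-1.17). The retromer was covered by Vps26a (0.97) and by 2 regions at Vps26b (0.55 and 0.47) in the authors' deposited table, and Vps26c, of the related retriever complex, had 0.77. GARP and EARP, which receive endosomal vesicles at the Golgi and at recycling endosomes, had 6 regions over 4 of 5 genes, 5 of them positive. ESCRT genes, which sort ubiquitinated cargo into multivesicular bodies, had 8 regions over 7 of 9 genes, 6 of them positive, with negative starts at Vps4a (-1.17) and Vps37d (-1.06) in the authors' deposited table. All 4 Vps13 genes, which encode bridge-like lipid transfer proteins, had a region, positive at the starts of Vps13a (0.84) and Vps13d (0.73) and negative in distal AT-rich sequence near Vps13b (-0.65) and Vps13c (-0.67), per the authors' deposited table. The start of Vps9d1 had the second most negative Vps effect (-1.40) in the authors' deposited table, in a promoter shared with Zfp276.

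Sorting nexins had the lowest share of positive regions among the families, 26 of 36 (72.2%, 56.0 to 84.2%), with a median of 0.65. Of their 17 promoter regions 7 were negative (41.2%, 21.6 to 64.0%), beside 14 of 93 in the other families and 24.95% of all listed promoters. The intervals include the shares of the whole table, 80.7% positive among all listed regions and 24.95% negative among listed promoters. The difference between families was not tested. The lowest effect of all members was at Snx25, where adjoining regions had -2.69 (adjusted p = 7.79e-11) and -1.36 in the authors' deposited table. The start of Snx9, a partner of dynamin in endocytosis, had -2.08 there, lower than any member but the first Snx25 region and Rab3ip. The authors' deposited table also gave negative effects at the starts of Snx16 (-1.63), Snx2 (-1.01), Snx24 (-0.92) and Snx18 (-0.82). Snx5, a retromer-associated nexin, had 2 negative regions (-0.67 and -0.81), over 50 kb from its start, in the authors' deposited table. The highest were distal, near Snx27 (1.59), which sorts cargo with the retromer, Snx10 (1.498) and Snx29 (1.11). Snx20, which binds the selectin ligand PSGL-1 in leukocytes, had 0.63 at its start in the authors' deposited table, at the lowest GC content (49.5%) among regions at a member's own start.

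All 18 regions of the SNARE families had positive effects, 12 over 10 of 15 Stx genes (75.8 to 100%) and 6 over 4 of 7 Vamp genes (61.0 to 100%). With so few regions, the intervals include the 80.7% of all listed regions. Syntaxins had the highest median, 1.07 (0.70 to 1.29), and 7 of the 12 had an effect of 1 or more. In the authors' deposited table, Stx6, of the trans-Golgi network, had the highest (2.17, adjusted p = 2.28e-11), followed by Stx7 of late endosomes (1.32, 17604 bp from its start), Stx5a of the early Golgi (1.29) and Stx12 of recycling endosomes (1.27 distal and 1.04 at its start). The start of Stx18, of the endoplasmic reticulum, had 1.09, and those of Stx17, of autophagosomes, Stx4a, of the plasma membrane, and Stx1a had 0.72, 0.88 and 0.70 in the authors' deposited table. For the lytic granule syntaxin Stx11 the region lay 41359 bp from its start and 190 bp from that of the non-coding gene B230208H11Rik, with 0.65 in the authors' deposited table. Vamp effects in that source spanned only 0.77 to 0.94, with Vamp3, of recycling endosomes, at 0.90 and 0.88, Vamp8, of endosomes and secretory granules, at 0.90, and Vamp5 at 0.89 and 0.77. Of 8 genes named for secretion from cytotoxic and helper cells, Rab27a, Stx11, Stx6, Vamp8 and Vps33b each had 1 positive region. Stx3 had none, and Stx4 (here Stx4a) and Vamp7 were not found under those symbols.

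**Figure D2:**
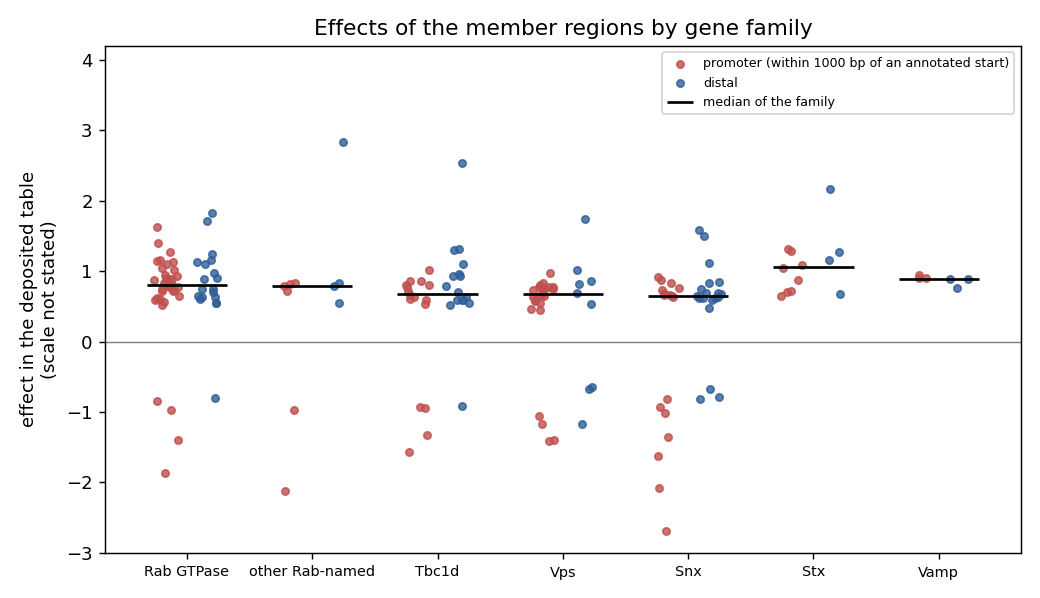
Effect of each of the 184 member regions (vertical axis, deposited effect on a scale that is not stated) by gene family, promoter regions in red and distal regions in blue, with the family median as a bar. Medians run from 0.65 for Snx to 1.07 for Stx, the 29 negative regions fall in 5 families, and no Stx or Vamp point lies below 0.

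Negative member regions were more frequent among the most GC-rich promoters and in distal sequence of low GC content, as in the table as a whole. No distal member exceeded 62.4% GC. Over all listed regions, 65.3% of distal ones at 70% GC or more and 33.3% of promoters under 40% were also negative. At promoters, 89 of 110 member regions were positive (80.9%, 72.6 to 87.2%), beside 75.1% of all listed promoter regions, and 66 of 74 distal members were (89.2%, 80.1 to 94.4%), beside 86.9% of all listed distal regions. The median GC content was 70.4% in negative and 61.7% in positive promoter members, whereas it was 42.4% in negative and 50.4% in positive distal members. Of 13 member promoters at 70% GC or more, 11 were negative (84.6%, 57.8 to 95.7%), beside 84.1% of all listed promoters of that content. The positive pair in that group, at Vps37b (0.78) and Vps26b (0.47) in the authors' deposited table, were only 175 and 100 bp wide. At 65 to under 70% GC 6 of 23 were negative (26.1%, 12.6 to 46.5%), beside 41.2% of all listed promoters, and under 60% GC 1 of 30 was, beside 4.82%. The exception under 60% was the Tbc1d14 region near Gm42507 (41.7% GC). Of all listed promoters at 40 to under 45% GC, 23.7% were negative. The negative starts of Tbc1d20 (62.7%), Snx16 and Tbc1d5 (64.6% each) lay near the promoter median. In distal sequence, 6 of 11 members under 45% GC were negative, beside 39.9% of all listed distal regions of that content, and 2 of the 63 at 45% or more were, beside 5.81%. The median GC content of member promoters, 62.3%, was nearly that of all listed promoters (62.4%). Direction varied with GC content in members as in the whole table, and the part of GC content in the difference between genes was not tested.

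**Figure D3:**
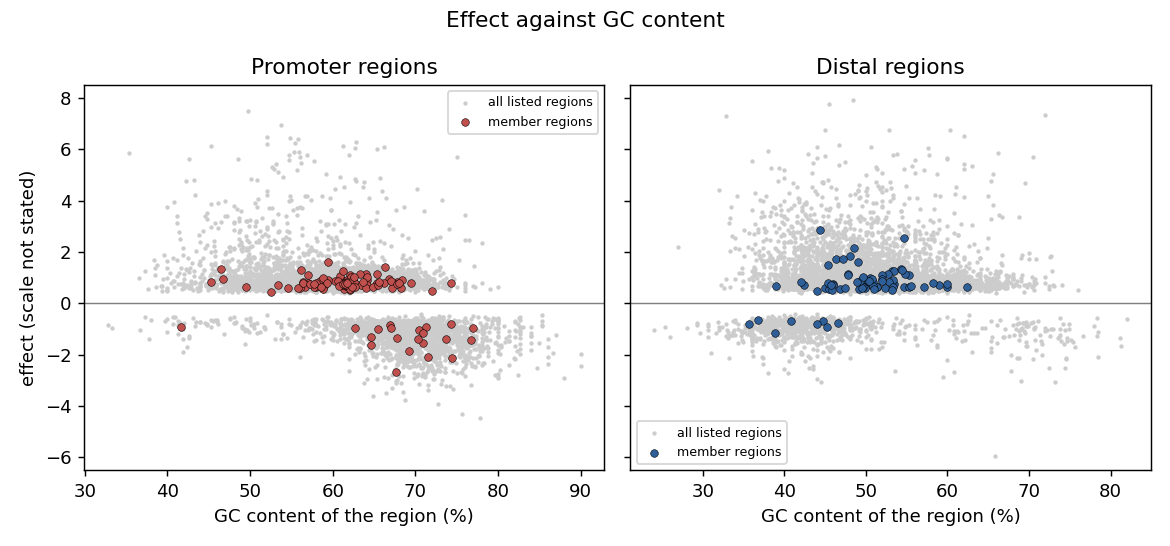
Effect (vertical axis, scale not stated) against the GC content of the region in percent, for promoter regions on the left and distal regions on the right, with the members in colour over all listed regions in grey. Negative member promoters gather at high GC, with 11 of the 13 members at 70% or more below 0, and 6 of the 8 negative distal members lie under 45%.

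Some close paralogues had promoter effects of opposite sign. The authors' deposited table gave -1.39 at Rab2a (73.7% GC) and 0.52 at Rab2b (62.1%), and -0.97 at Rab6b (76.9%) and 1.14 at Rab6a (65.4%). The ATPases that disassemble ESCRT filaments had -1.17 at Vps4a (70.9% GC) and 0.63 at Vps4b (64.9%) in the authors' deposited table. The ESCRT subunits Vps37b (0.78, 74.3% GC) and Vps37c (0.65, 62.3%) were positive there and Vps37d (-1.06, 70.5%) negative. The Vps37b region was only 175 bp wide, and the part of GC content in these signs was not tested. By contrast, starts of Rab1, Rab5 and Rab11 paralogues were positive throughout, from 0.56 at Rab5c to 1.40 at Rab1a in the authors' deposited table. The pairs were chosen after their values were seen, and each promoter is 1 value without a replicate.

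The side of the start was also compared. Of 39 member regions centred within 1000 bp upstream of their gene's start 34 were positive (87.2%, 73.3 to 94.4%), and of 65 centred downstream 50 were (76.9%, 65.4 to 85.5%). Over all listed regions the shares were 75.7% and 72.1%. Of 7 member promoters with the start of another protein-coding gene within 1000 bp 6 were positive, beside 75.1% of all listed promoters. The share among all listed promoters shared in that way was not computed. The positive ones included Rab6a with Mrpl48 (1.14), Vps52 with Rps18 (0.74) and Rab2b with Tox4 (0.52) in the authors' deposited table. Vps9d1 with Zfp276 (-1.40) was negative there. Such regions cannot be given to 1 gene. Of 46 distal regions in introns, 34 lay in an intron of the gene they were given to and 12 in introns of other genes only, as for Tbc1d7, whose regions lay in Phactr1 and Gfod1.

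Several genes had regions of opposite sign. Of 128 genes with a region, 87 had 1 and 41 had 2 or more, of which 29 had only positive, 2 only negative and 10 both (24.4%, 13.8 to 39.3%). Among the 2974 protein-coding genes with 2 or more listed regions 30.4% had both. In 8 of the 10 member genes a region at the gene's own start was negative (80%, 49.0 to 94.3%), beside 61.2% of all such genes, which lies within that interval. In the authors' deposited table, the start of Snx9 had -2.08 and 3 intergenic regions 35654 to 85191 bp upstream had 0.48, 0.84 and 0.62. The start of Vps54, a GARP subunit, had -1.41 and a repeat-rich region 47006 bp upstream 1.74 in that source. Rab6b had -0.97 at its start and 1.71, the second highest Rab GTPase effect, 3224 bp upstream, per the authors' deposited table. Rab2a (-1.39 and 1.15), Tbc1d20 (-0.95 and 1.10), Rab11fip4 (-0.97, 0.79 and 0.82) and Snx24 (-0.92, 0.69, 0.60 and 0.70) had the same arrangement in the authors' deposited table. Snx18 had a negative start (-0.82) with 1 negative (-0.78) and 1 positive (0.83) distal region there. Tbc1d14, which acts in autophagy, had the reverse, with 0.86 at its start and -0.93 in a region 32423 bp upstream, in an intron of D5Ertd579e and 13 bp from the annotated start of Gm42507, besides 0.55 and 0.59, in the authors' deposited table. Tbc1d7, a subunit of the TSC complex, had -0.91, 0.70 and 0.96 in the authors' deposited table, none at its start.

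**Figure D4:**
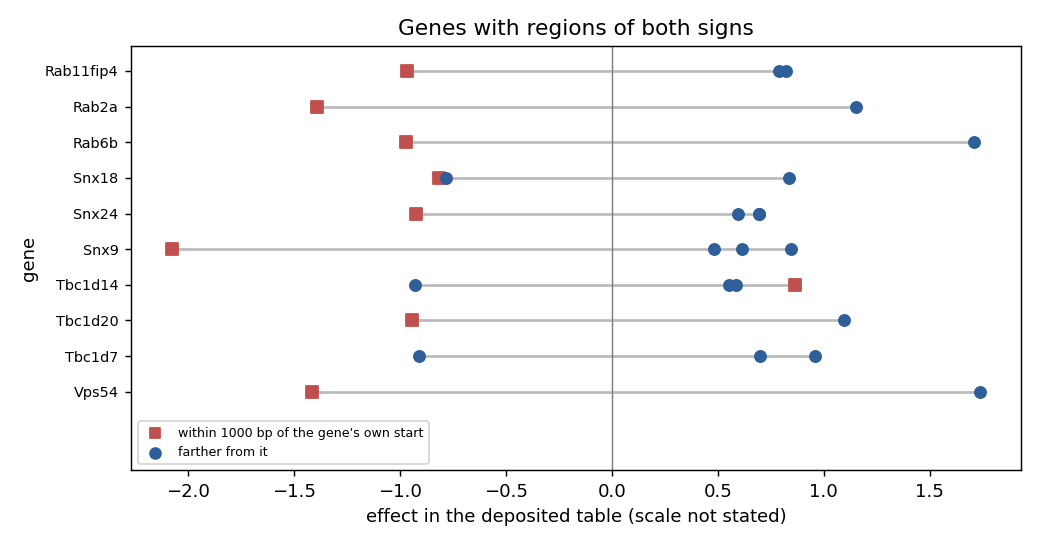
Effects (horizontal axis, scale not stated) of all regions of the 10 genes with both signs, 1 gene a row, with regions within 1000 bp of the gene's own start as red squares and regions farther away as blue circles. In 8 genes the square lies below 0 and at least 1 circle above it, in Tbc1d14 the square lies above 0, and Tbc1d7 has no square.

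The 2 highest member effects lay in repeats. Over 50% of the sequence was soft-masked in 10 member regions (5.43%), beside 5.84% of all listed regions, and all 10 were positive with a median of 1.10. Over all listed regions, 95.3% of the 875 that were so masked were positive with a median of 1.26. The regions of Rab3gap2 and Tbc1d22a, on different chromosomes, aligned over 114 columns with 90.4% identity and shared an exact run of 28 bp, shown in capitals above. This run was present in 33 listed regions. The other 31, none of them a member, lay on 15 chromosomes, 30 were distal, and 96.8% were over 50% soft-masked. All 31 had positive effects in the authors' deposited table, from 1.65 to 3.82 with a median of 2.17. The run was chosen from the 2 highest member values, so this is a description. The treatment of reads that match several places was not stated in the sources, and the effects of these regions are uncertain for that reason. By the criterion of at least 95% identity over 240 bp or more, 3 members were multi-copy (1.63%, beside 5.86% of all listed regions): those near Snx27 (1.59), Tbc1d32 (0.93) and Vps45 (0.82) in the authors' deposited table. Of the 33 regions with the run, 3 were multi-copy by that criterion, and those near Rab3gap2 and Tbc1d22a were not.

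The element GTCACGTGA, the site of TFEB and related factors that control lysosomal genes, was searched with other consensus sequences on both strands of the central 300 bp, a window that takes in flank where a region is narrower. It was found in the windows of 7 of 110 member promoters (6.36%, 95% Wilson interval 3.12 to 12.6%), beside 1.16% of 7849 listed promoters, and in 0 of 74 distal members, which allows a share of up to 4.94% (upper Wilson limit), beside 0.239% of listed distal regions. At Rab20 the site lay in the flank, outside the 50 bp region. Fragments of 200 to 400 bp over that region also carried flanking bases, so the site may have been assayed with it. With the window cut to the region, 6 of 110 member promoters held the element (5.45%, 2.52 to 11.4%), beside 1.10% of listed promoters. The sites are shown with 10 bases on each side, in the direction of the consensus and with the element in capitals, since, of the searched sequences, only this element and the E-box it contains had a listed-promoter share outside the member interval. One of the 7, at Snx2, is not printed.

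Rab20 (chr8:11477862-11477870): tggtgcgcaaGTCACGTGAgtggaatagc

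Rab24 (chr13:55321971-55321979): gggacgcccgGTCACGTGAcgcgggcgcc

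Snx16 (chr3:10440009-10440017): ggggcggaggGTCACGTGAggagtccgag

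Stx4a (chr7:127841520-127841528): ggcccggcctGTCACGTGAtgagggggcg

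Tbc1d13 (chr2:30133711-30133719): agaagtccccGTCACGTGAcccttgggcg

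Vps26a (chr10:62486742-62486750): cccgccgcccGTCACGTGAccgtaggcca

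The elements of Rab24, Tbc1d13 and Vps26a continued to the full palindrome and lay 30 bp upstream, 31 bp upstream and 59 bp downstream of the gene's start. That of Stx4a lay 240 bp upstream, and those of Snx16 and Rab20 lay 74 and 844 bp downstream. In 6 member promoters the element lay within both the region and its central 300 bp. Those of Vps26a (0.97), Rab24 (0.95), Stx4a (0.88) and Tbc1d13 (0.80) were positive in the authors' deposited table. Those of Snx2 (-1.01) and Snx16 (-1.63) were negative there, so that the element did not go with 1 sign. The Rab20 region, with the element in its flank, had 0.63 in that source. Of the 102 listed regions with the element in the window cut to the region 85 were positive, and of the 108 with it in the whole window 88 were. Wider regions were not searched beyond their central 300 bp, so more of them may hold it. Among all listed regions 80.7% were positive. In RefSeq promoters of 300 bases (250 before to 50 after a start, GRCm38), taken whether or not a region was listed, 8 of the 141 member genes that could be matched held it (5.67%, 2.90 to 10.8%): Rab5a, Rab21, Rab24, Stx6, Tbc1d13, Vps16, Vps26a and Vps33a. Among 16522 matched protein-coding genes 1.17% did. A match shows only that the letters are present.

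Among promoters and among distal regions, other consensus sequences lay nearer to the table's shares. The E-box CACGTG, which the TFEB element contains, was found in 14.5% of member promoters (9.16 to 22.3%) and 8.24% of listed promoters. ETS (CCGGAAG) was found in 16.4% and 14.5%, NRF1 (GCGCATGCG) in 3.64% and 2.54%, YY1 (AAGATGGCG) in 2.73% and 3.44%, the SP site in 13.6% and 18.2% and CCAAT in 24.5% and 32.5%. In distal members, AP-1 was found in 31.1% (21.7 to 42.3%) and the STAT consensus in 20.3% (12.7 to 30.8%), beside 26.9% and 14.8% of listed distal regions, and RUNX (TGTGGTT) in 8.11% beside 10.5%. AP-1 was held by the members of highest effect near Rab3gap2, Tbc1d22a and Stx6. At Tbc1d22a it lies in the flank that fills the window. It did not go with 1 sign, since 22 of 155 positive members held it (14.19%) and 4 of 29 negative members did (13.79%). The negative holders were near Vps13b, Snx5, Snx18 and Tbc1d7. All 19 members with ETS in the window were positive, beside 87.6% of the 1391 listed regions with it, among them Rab8a (1.16), Stx18 (1.09), Vps33b (0.80) and Rab11a (0.73) in the authors' deposited table. Of 29 negative members 7 held the STAT consensus (24.1%, 12.2 to 42.1%), beside 5.95% of all listed negative regions, which lies below that interval. Of 155 positive members 13 did (8.39%), beside 11.3%. The negative holders near Snx18, Rab28, Snx5, Tbc1d7 and Vps41 were distal, and those at Tbc1d5 and Snx25 were promoter regions. In listed regions the STAT consensus was commoner in distal sequence (14.8%) than in promoters (6.15%). The split by sign was not tested. The full CRE (TGACGTCA) was found in 4 member regions (2.17%), beside 2.04% of listed regions. They were near Rab31 (1.25), Snx18 (0.83), Vps37b (0.78) and Tbc1d32 (0.60) in the authors' deposited table. Its core TGACG was found in 26.1% of members and 25.6% of listed regions. ZNF143 (CTACAATTC) was found in no member (upper Wilson limit 2.05%), beside 0.274% of listed regions.

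**Figure D5:**
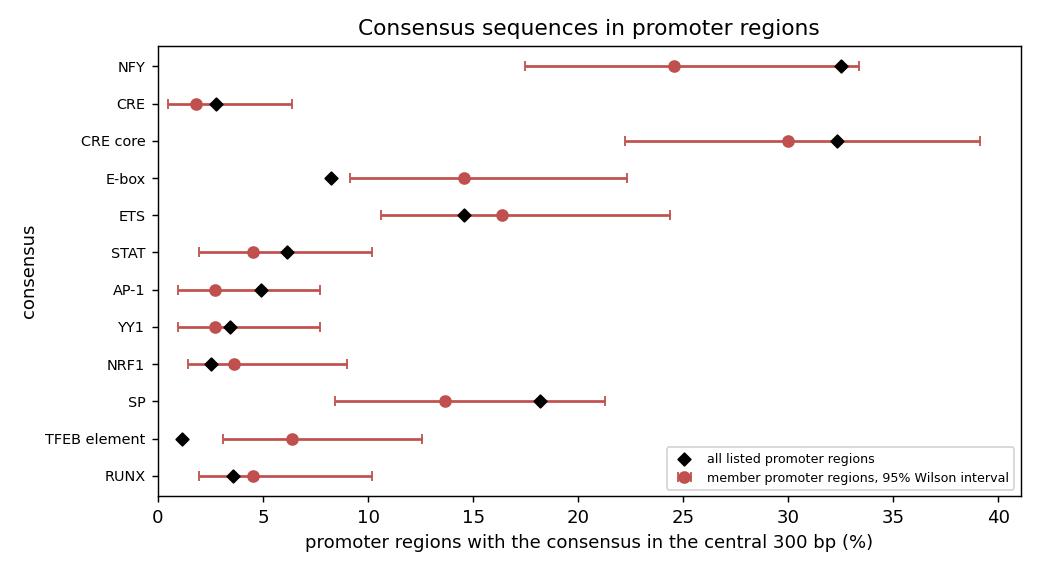
Percent of promoter regions (horizontal axis) that hold each consensus in the central 300 bp, for the 110 member promoters in red with 95% Wilson intervals and for all 7849 listed promoters as black diamonds. For the TFEB element (6.36% against 1.16%) and the E-box (14.5% against 8.24%) the diamond lies left of the interval, and for the other sequences drawn it lies within it. The core of CRE is TGACG.

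Other genes of the same machinery, from a fixed list of 146 annotated genes outside the member families, gave a share between that of the members and that of all genes. Of these, 87 were the nearest start of a region (59.6%), with 112 regions and a median effect of 0.72. Of the regions 88 were positive (78.6%) and 24 negative, beside 80.7% positive among all listed regions. SNAREs and their Sec1/Munc18 partners had 19 positive regions of 20 over 16 of 28 genes, and vesicle tethers (exocyst, COG and TRAPP) 22 of 26 over 21 of 31. Coat proteins had 13 positive of 16 regions and WASH and ESCRT partners 9 of 11. Rab exchange factors and effectors had 19 positive of 30 and Rab prenylation and recycling factors 6 of 9. Differences between these groups were not tested. The extremes in the authors' deposited table were 2 regions near Sytl3 (3.59 and 3.20), which encodes a Rab27 effector, and regions at the starts of Dennd2a (-2.48) and Dennd1b (-1.99), which encode Rab exchange factors.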

How the data were processed

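The authors deposited 1 table of regions giving for each its width, a signed effect (a score of unstated scale), the p-value of that effect and its q-value (adjusted p), derived from the alignments of both output libraries on mm10 per the file headers. Aligner, region caller, test and scaling: not given in the sources used here. The table held 14994 regions, and 21 off chromosomes 1 to 19, X and Y were left out. Depth is unknown. The members and lists were chosen with earlier results of these data known, so counts, shares with 95% Wilson intervals and medians are given beside those of all listed regions, with no test.

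Starts came from GENCODE M21 (basic, protein-coding transcripts of protein-coding genes), measured from region centres, and sequence from GRCm38, with Python 3.11.15, pandas 2.3.3, scipy 1.17.1, pysam 0.24.0, samtools 1.23.1 and minimap2 2.31 (k = 19, w = 10, N = 50, p = 0.5). Regions centred within 1000 bp of any annotated start were called promoter regions. A multi-copy region matched at least 2 places at 95% identity or more over at least 240 bp with its central 300 bp. Named regions were the 4 highest and 3 lowest of each family, genes with 3 or more regions or with both signs, and multi-copy regions. Others named were chosen after their values were seen. Sequences were printed for some of the regions that the rule allowed, and the TFEB sites, the shared run and the RefSeq promoter search were added after the data were seen. The interval and name functions were tested on simulated data. Alternatives were other distances, adjusted p, effect sizes, widths, annotations, promoter windows and consensus windows, merged regions, and multi-copy or repeat regions left out.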

Additional observations from a re-analysis of the deposited data

How the results depend on the processing

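No paired analysis was possible because the 1 table combines both libraries, and for that reason no library was left out. Direction stayed positive under every alternative run for the median effect. With an adjusted p under 0.001, 112 member regions were left (60.9%, beside 60.6% of all listed regions), with a median effect of 0.81. Of member genes, 48.4% then had a region (30.2% of all protein-coding genes). At that threshold 97.0% of distal members were positive, and the same share over all listed distal regions was not computed. With an absolute effect of at least 1, 48 regions were left, 68.75% of them positive, with a median of 1.11. Of all listed regions of that size, 3409 were positive and 1674 negative, so positive regions were a smaller part there too. Within 20 kb, 60.8% of member genes had a region (38.6% of all). Other alternatives for distance, annotation, width, copies, repeats, merging and promoter window left these results within their intervals, or the count within 1.5 times. In the central 200 bp, CCAAT was found in 19.02% of members, below its interval of 21.8 to 34.6% from 300 bp. Its share of listed regions fell as well, from 31.9% to 23.2%. The TFEB element was found in 2.72% of members in that window, beside 0.494% of listed regions. Cutting the consensus window to the region, an alternative chosen after seeing the data, left each of the 13 searched shares within its interval. Read depth is unknown, so the deposited p-value is the sole measure of an effect's precision.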
